A study of Mus musculus with 4 samples.

Results

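Epithelial, endothelial and muscle cells hold on to each other through tight, adherens, desmosomal and gap junctions, and 41 genes of these junctions were followed here in fetal mouse lung. They were taken by symbol, as every probe set annotated to 1 of the 41 names, and comprise 20 tight junction genes, 15 adherens junction and desmosome genes, and 6 gap junction genes, of 18194 named genes on the arrays. The lungs came from embryos at E18.5, the end of gestation, in 2 genotypes: wild type, and Myf5-/-:MyoD-/- embryos that lack both myogenic regulators and so form no skeletal muscle, with no fetal breathing movements. Both genotypes are labelled BALB/c, and the title of the series gives its question as the role of skeletal muscle in lung development. From 6 µg of total RNA, biotin-labelled cRNA was prepared for 2 Affymetrix designs that carry different probe sets, MOE430A and MOE430B, and each genotype had 1 array per design, 4 in all. With no replicate there is no test, and the number of arrays limits the precision of every value. The labels do not say whether an array holds RNA of 1 embryo or of a pool. In whole lung, a change in the number of cells of a type and a change in RNA per cell cannot be told apart.

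Tight junctions seal the space between epithelial cells. Claudins form the seal and its ion-selective pores, occludin and tricellulin span the same strands, junctional adhesion molecules sit beside them, and scaffold proteins tie them to actin. Adherens junctions and desmosomes carry mechanical load through cadherins, which are linked inside the cell by catenins, plakophilins and plakins to actin or to keratin. Gap junctions are channels of connexins that pass ions and small molecules between neighbours. In the lung before birth the airspace is filled with secreted fluid, and the claudins of alveolar and airway epithelium form the barrier that later keeps fluid out of the airspaces.

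The targeted genes do not settle the labels. Signals are given as pairs throughout, first of the array labelled wild type and then of the array labelled double knockout. Myf5 read 110.5 and 8.94, each under the floor of signal described in the next paragraph. Myod1 was opposite to what the label would give on MOE430A, at 85.0 and 1081, and read 337.2 and 607.2 on MOE430B, under the filter. The sources used do not say whether either probe set falls inside the deleted sequence, so this checks nothing firmly. Genotypes are therefore named below as labelled, and every direction rests on the labels. Xist, the RNA of the inactive X chromosome, read 7600 and 2749 on its strongest probe set, so sex composition and genotype cannot be told apart. All 12 fixed markers of lung epithelium passed the filter on MOE430A, as did 11 of 11 of cardiac muscle. Markers of thymocytes, which are cells of another organ, summed to 22118 and 2359, and their part in the results below was not tested.

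Signals are in the arbitrary units of each array. To pass, a probe set needed 1 signal at or above its design's median (789.2 on MOE430A, 858.2 on MOE430B). Signals under the 25th percentile were raised to that floor (284.5 and 279.1) before ratios were taken. Each gene was read on each design by its brightest passing probe set, meaning that of highest mean log2 signal. The second signal of a pair is divided by 1 factor per design (1.004 and 1.008), and ratios are log2 of double knockout over wild type. No replicate gives an error, but 100 probe sets are on both designs, and from their disagreement a single log2 ratio had an SD of 0.24. Different passing probe sets of 1 gene spread with an SD of 0.37 on MOE430A and 0.71 on MOE430B. These are the spreads against which the ratios below were read. Neither kind was made from replicate embryos, so neither stands for variation between embryos. The SD of 0.24 also leaves out any mean difference between the designs.

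The members had 87 probe sets, 73 on MOE430A for 39 genes and 14 on MOE430B for 11 genes. Of these 58 passed, 47 and 11, reading 29 members on MOE430A, 9 on MOE430B and 32 on either. On MOE430A, 4 of the 29 members were 1.5-fold or more higher in the double knockout and 1 was lower by as much, against 6.21% and 6.3% of all 7646 genes measured on that design. On MOE430B, 3 of 9 were at least 1.5-fold higher and 1 lower, against 14.3% and 14% of 6719 genes. No member read by its brightest probe set reached 2-fold in either direction, which 1.77% of genes did upward and 1.78% downward on MOE430A, and 7.05% and 6.25% on MOE430B. The upward shares lie above the background and the downward counts rest on 1 gene each, which with so few genes and no replicate was not tested. On MOE430A the 1.5-fold differences lay in 3 claudins and Pkp3 upward and in 1 claudin downward, and on MOE430B they were all in the adherens and desmosome class. Of the members that passed, 2 on MOE430A and 1 on MOE430B had only 1 of their signals above the filter, namely Cldn15, Pkp3 and Cdh3. Pkp3 and Cdh3 passed through the double knockout array alone and Cldn15 through the wild type array alone. The filter thus fixed their directions, and the upward and downward counts above include them.

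**Figure D1:**
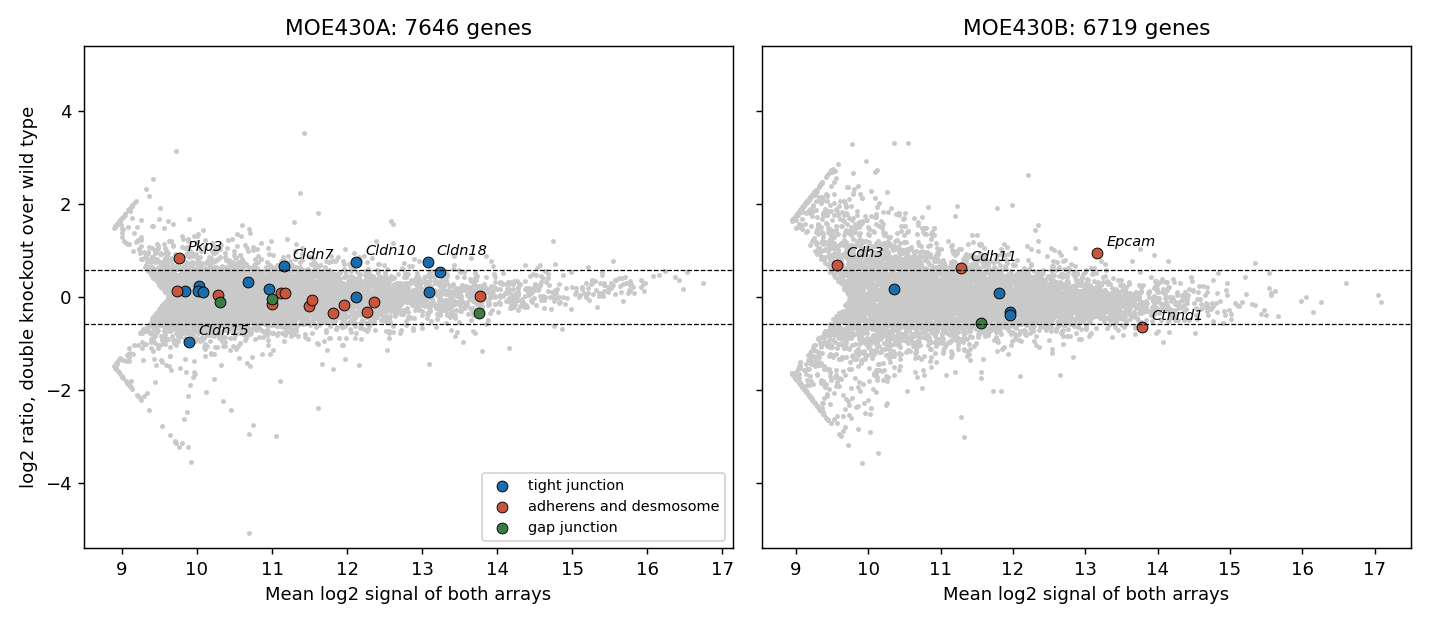
The log2 ratio of double knockout over wild type (vertical axis) is plotted against the mean log2 signal of both arrays for every gene measured on MOE430A (7646, left) and MOE430B (6719, right), with junction genes in colour by class and dashed lines at 1.5-fold. On MOE430A, Cldn18, Cldn10, Cldn7 and Pkp3 lie above the upper line and Cldn15 below the lower line. Other members lie between the lines there. On MOE430B, Epcam, Cdh3 and Cdh11 lie above the upper line and Ctnnd1 below the lower line.

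Promoters of the claudins with the highest ratios on MOE430A are shown because these genes were higher together. RefSeq promoters (GRCm38.p6) were found for 25 of the 41 members. The bases before each annotated start were searched on both strands for CAAGTG, which reads CACTTG from the other strand, the core site of NKX2-1, the transcription factor that specifies lung epithelium. Capitals mark this core. The first 4 windows below are the annotated starts of Cldn18, Cldn10 and Cldn7 that hold it, Cldn3 is a higher claudin without it, and Cldn15 is the lower claudin. Each is written 5′ to 3′ on the strand of its gene and ends at the base before the start.
Cldn18, chr9:99710064-99710313, minus strand: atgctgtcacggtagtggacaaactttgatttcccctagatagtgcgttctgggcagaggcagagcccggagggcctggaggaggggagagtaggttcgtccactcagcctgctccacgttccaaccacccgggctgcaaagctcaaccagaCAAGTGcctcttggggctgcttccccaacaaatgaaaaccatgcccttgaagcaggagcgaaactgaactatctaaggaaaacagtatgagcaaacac
Cldn10, chr14:118787621-118787870, plus strand: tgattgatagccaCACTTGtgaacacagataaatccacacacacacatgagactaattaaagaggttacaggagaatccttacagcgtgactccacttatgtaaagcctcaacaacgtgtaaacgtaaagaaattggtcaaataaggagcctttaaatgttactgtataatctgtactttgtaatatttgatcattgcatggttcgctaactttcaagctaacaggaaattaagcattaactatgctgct
Cldn10, chr14:118854700-118854949, plus strand: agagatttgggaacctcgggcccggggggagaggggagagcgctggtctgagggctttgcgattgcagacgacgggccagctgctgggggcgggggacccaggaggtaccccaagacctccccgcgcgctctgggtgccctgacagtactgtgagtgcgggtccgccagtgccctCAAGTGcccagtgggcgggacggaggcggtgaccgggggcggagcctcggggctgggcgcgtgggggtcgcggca
Cldn7, chr11:69965171-69965420, plus strand: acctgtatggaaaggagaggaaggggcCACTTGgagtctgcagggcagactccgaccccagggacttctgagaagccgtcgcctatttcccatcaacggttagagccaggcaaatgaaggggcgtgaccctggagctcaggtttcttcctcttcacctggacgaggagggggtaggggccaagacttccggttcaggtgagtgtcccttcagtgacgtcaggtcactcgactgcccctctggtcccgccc
Cldn3, chr5:134985964-134986213, plus strand: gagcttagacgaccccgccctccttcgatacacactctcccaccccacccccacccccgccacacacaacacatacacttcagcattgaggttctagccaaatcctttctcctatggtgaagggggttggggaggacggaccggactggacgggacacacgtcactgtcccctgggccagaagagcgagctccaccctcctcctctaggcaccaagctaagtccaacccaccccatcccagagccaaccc
Cldn15, chr5:136967619-136967868, plus strand: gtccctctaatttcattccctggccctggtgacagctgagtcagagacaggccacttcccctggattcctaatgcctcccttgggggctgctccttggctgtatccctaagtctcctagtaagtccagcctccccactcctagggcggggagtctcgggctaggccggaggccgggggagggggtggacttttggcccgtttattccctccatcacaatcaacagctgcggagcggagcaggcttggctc

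The core begins 98 bases before the start in the Cldn18 window, at 237 and 75 bases in the Cldn10 windows and at 223 bases in the Cldn7 window. The other annotated starts of Cldn18 (chr9:99717268-99717517) and Cldn7 (chr11:69964529-69964778) have none in the window. Of the 25 members with a promoter, 5 hold the core before at least 1 start (Cldn18, Cldn10, Cldn7, Cldn1 and Gjb1), and 13.2% of all 27025 genes do. By single windows it was 7 of 37 for members and 11.6% of 32851 for all promoters. AACCNGTT, a site of grainyhead factors that reads AACNGGTT from the other strand, was in the window of 1 member, Cgn, and in 2% of genes. GGAATG, a TEAD site that reads CATTCC from the other strand, was in 4 members, Cldn15, Cldn2, Cldn7 and Gjb1, and in 14.4% of genes. None of these motifs contains another. Which start the RNA came from cannot be told from these probe sets, and a match is only a description of the letters.

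Tight junction genes leaned upward on MOE430A. Of 18 members with a probe set there, 13 passed. Of those, 12 were higher in the double knockout and 1 was lower, with a median log2 ratio of 0.17 where all genes of the design had 0.01 and 51.3% of them were higher. The split of 12 to 1 was the same with the signals as deposited, with quantile normalization and with a loess curve removed, and it was 11 to 2 with the median over each gene's probe sets. Without a filter the median over all 18 was also 0.17. Most of these differences were small, between 0.01 and 0.33, and the size came from the claudins.

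Cldn18, the claudin of alveolar epithelium and in particular of the thin type I cells, read 6633 and 11205, a log2 ratio of 0.76. Its other probe set read 4398 and 7415, a log2 ratio of 0.75. The probe sets therefore agreed to within 0.01, and 3.45% of all genes on the design had a ratio at least as high. Cldn10, a claudin that forms ion-selective pores, read 3416 and 5784, 1.69-fold higher by its single probe set, which is of the _s_at kind that can bind several transcripts. Cldn7, a claudin that also lies along the lateral membrane of airway and other epithelia, read 1807 and 2871, a log2 ratio of 0.67. These ratios exceed the spread of both kinds given above for MOE430A. Those spreads do not measure variation between embryos, and there is no replicate to test the ratios.

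Cldn3, a sealing claudin of type II alveolar and airway cells, was read by 4 probe sets that did not give 1 value. The brightest read 8007 and 11609, a log2 ratio of 0.54. Others read 6035 and 9397 (0.64) and 5718 and 9044 (0.66), while the remaining probe set read 3608 and 3621, a log2 ratio of 0.01. Of the 4, 3 were thus higher by about the same amount and 1 was even. By the median over its probe sets Cldn3 had 0.59. All 4 are of the _a_at or _x_at kinds, so neither Cldn3 nor Cldn10 has a value once probe sets with such suffixes are dropped. With the filter raised to the 75th percentile, 7 tight junction genes were left on MOE430A and their median was 0.52. At that filter 3 of 19 members of all classes were at least 1.5-fold higher and none lower, against 4.1% and 5.07% of 4100 genes.

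Cldn4, a sealing claudin of airways, read 1884 and 2120 (0.17), and Cldn6, a claudin of embryonic epithelium, 958.3 and 1130 (0.24). Both differences lie within the spread between probe sets of 1 gene. Cldn15, a claudin that forms cation pores and is best known from the intestine, was the exception, at 1330 and 680.6, a log2 ratio of -0.97. Only 1.9% of genes on the design were as low or lower, but the signal in the array labelled double knockout was under the filter. Cldn12, read on MOE430B alone, gave 3458 and 3683 by its brighter probe set and 2245 and 1403 by the other, ratios of 0.09 and -0.68 that point opposite ways.

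**Figure D2:**
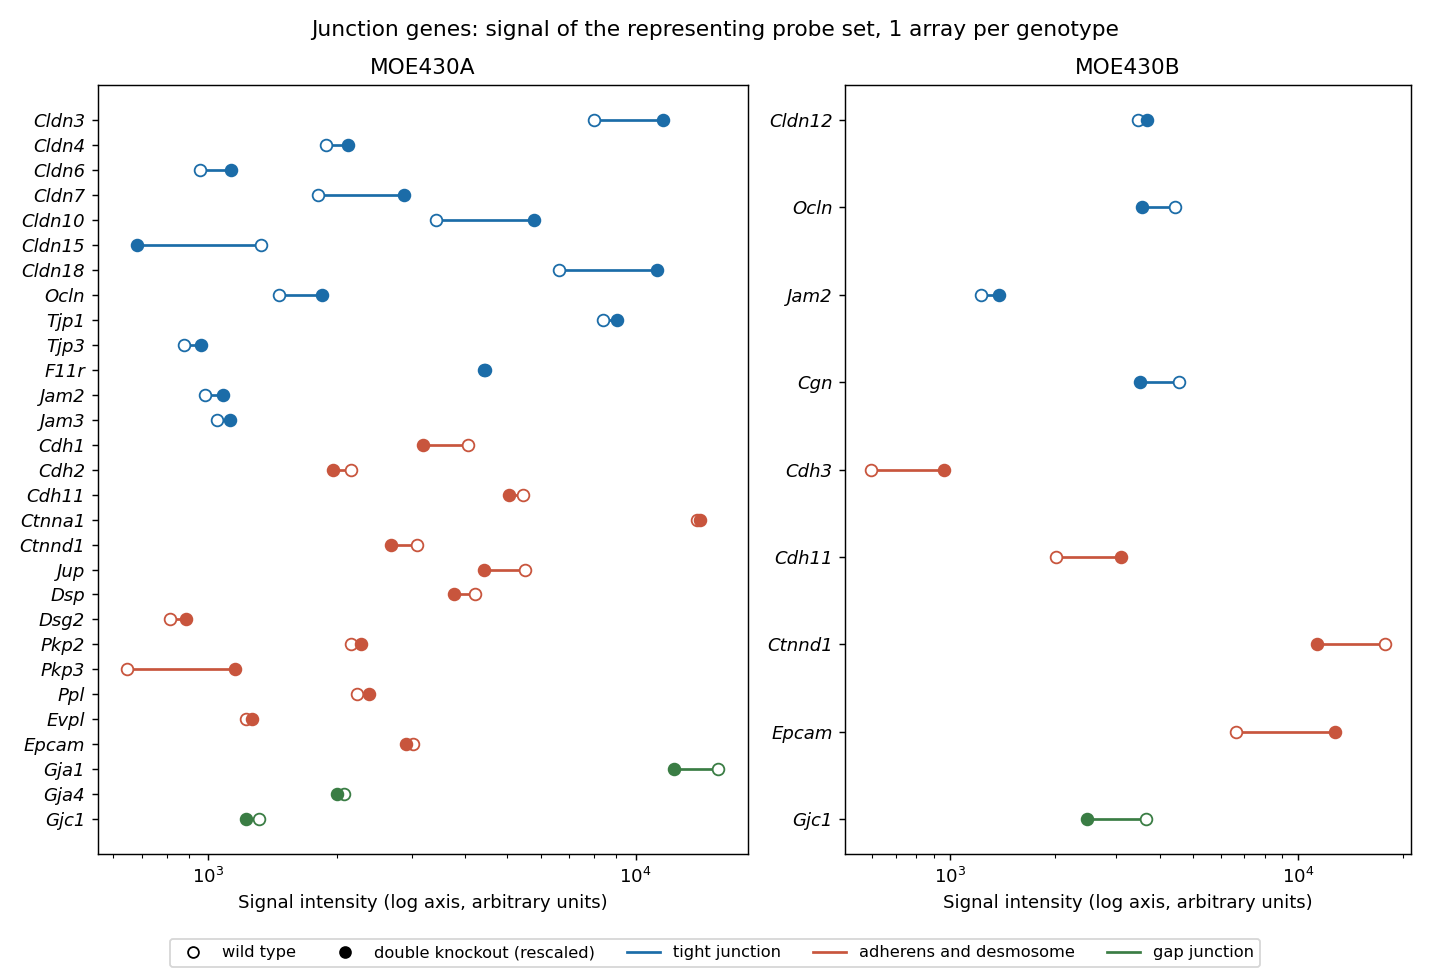
Signal intensity (log axis, arbitrary units) of the probe set that reads each junction gene on MOE430A (left, 29 genes) and MOE430B (right, 9 genes), with open points for the wild type array, filled points for the rescaled double knockout array and a line joining them. Among the tight junction genes, filled points lie right of open points for 12 of 13 on MOE430A, most widely for Cldn10 and Cldn18, and Cldn15 runs the other way.

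Away from the claudins, tight junction genes differed little. Ocln, occludin, read 1465 and 1848 on MOE430A (0.33) but 4432 and 3564 on MOE430B (-0.31), readings that differ in both probe set and array. Tjp1, the scaffold that links the strands to actin, read 8413 and 9060 (0.11), and its relative Tjp3, found in epithelia, 878.4 and 962.7 (0.13). Cgn, cingulin, a cytoplasmic plaque protein, read 4558 and 3509 on MOE430B (-0.38), while 23.7% of genes there were as low or lower.

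The junctional adhesion molecules are immunoglobulin-like proteins of epithelium and endothelium. F11r read 4413 and 4444 (0.01). Jam2 was the member whose passing probe sets agreed on both designs, with ratios of 0.14 and 0.22 on MOE430A and 0.18 on MOE430B. Jam3 had opposite ratios, at 1050 and 1126 (0.10) by its brighter probe set and 803.6 and 388.8 (-1.05) by the other, which passed through the wild type array only. On MOE430B as a whole, 2 of 4 passing tight junction genes were higher and 2 lower, with a median of -0.11, where all genes had -0.04.

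Other genes of tight junctions came from a list of 35 symbols and lay nearer 0 on MOE430A and lower on MOE430B. On MOE430A, 15 passed, with 9 higher, 6 lower and a median of 0.02, and 1 in each direction reached 1.5-fold. Among those with high signal, Esam and Cldn5, adhesion and sealing proteins of endothelium, were the highest with 0.40 and 0.25, and Amotl2, a scaffold (-0.19), and Mpp5, a polarity protein (0.02), the lowest. On MOE430B, 10 passed and 8 were lower, with a median of -0.43. At high signal there, Cgnl1, a relative of cingulin (0.62), and Cldn22 (0.57) were the highest, and Cxadr, a cell adhesion receptor (-0.73), and Sympk (-0.61) the lowest. Cgnl1 was opposite on MOE430A, at 1494 and 995.0 (-0.59), the 1 gene lower by 1.5-fold there. Lsr, the angulin that recruits tricellulin to corners where cells meet, was named after its values were seen. It read 647.1 and 1660 on MOE430A, 2.56-fold higher, with its wild type signal under the filter, and was the only gene of the list at 2-fold.

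**Figure D3:**
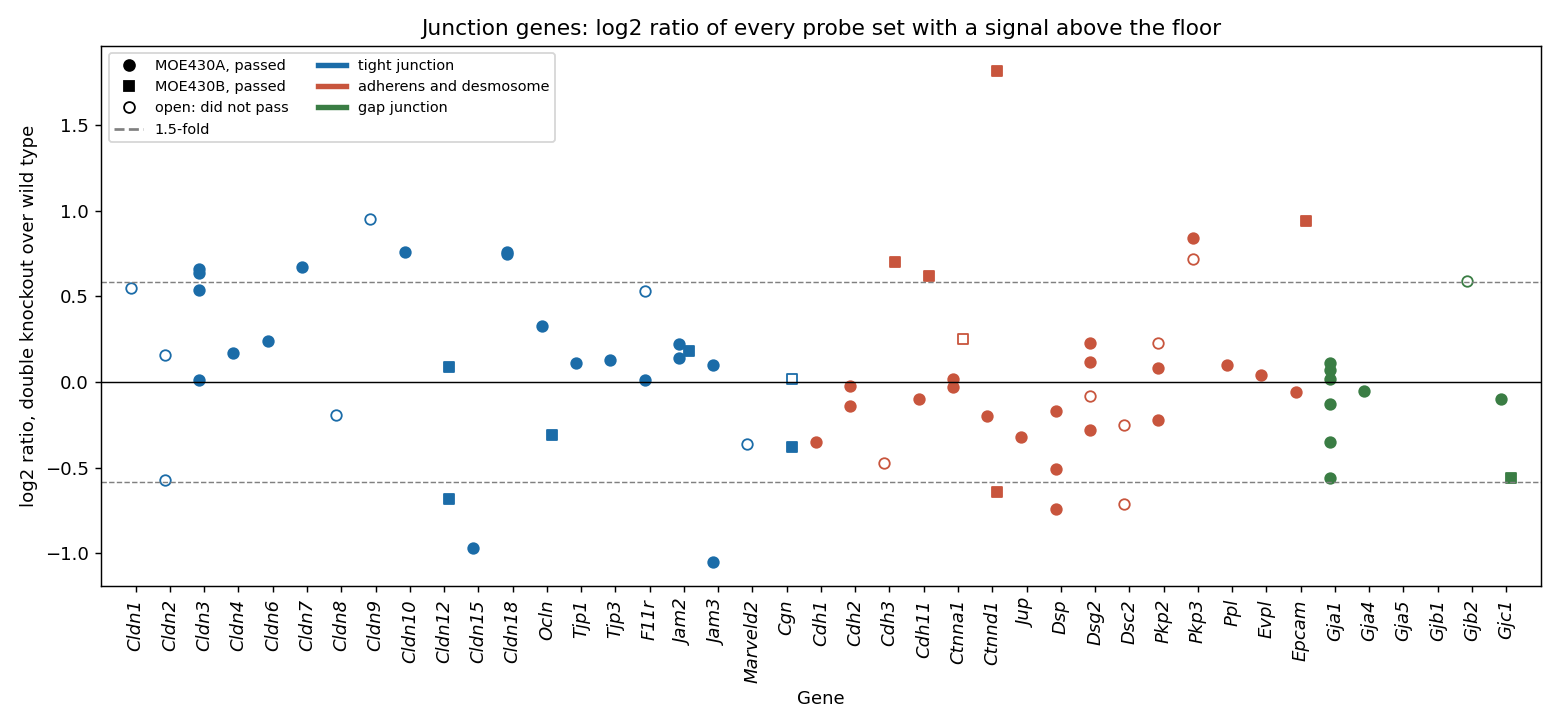
Each point is the log2 ratio of double knockout over wild type (vertical axis) of 1 probe set of the junction gene named below it, as circles for MOE430A and squares for MOE430B, filled where the probe set passed, with colours by class, dashed lines at 1.5-fold and probe sets with both signals below the floor left out. Points of Cldn18 coincide near 0.76, 3 of 4 points of Cldn3 lie together, and those of Ctnnd1 on MOE430B run from -0.64 to 1.82.

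Adherens junction and desmosome genes lay near even or slightly lower on MOE430A. All 15 had a probe set there and 13 passed, with 6 higher and 7 lower and a median of -0.06. The split was 5 to 8 with quantile normalization and with loess, 4 to 9 with the median over probe sets and 3 to 7 with the filter at the 75th percentile. Of 20 passing probe sets, 7 were higher and 13 lower. By the brightest probe set of each gene only Pkp3 reached 1.5-fold. Among the other passing probe sets, 1 of Dsp was 1.67-fold lower.

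Among the cadherins, Cdh1, E-cadherin of epithelium, read 4054 and 3178, a log2 ratio of -0.35, lower while the claudins of the same epithelium were higher. Its difference is smaller than the SD of 0.37 between probe sets of 1 gene. Cdh2, N-cadherin of mesenchyme and heart, had -0.14 and -0.02 by its probe sets (2159 and 1957 by the brighter). Cdh11, a cadherin of mesenchyme, read 5440 and 5064 on MOE430A (-0.10) and 2017 and 3092 on MOE430B (0.62). Cdh3, P-cadherin of basal epithelia, passed only on MOE430B, at 595.1 and 964.9 (0.70), and read 572.5 and 412.0 below the filter of MOE430A. Cdh1 had 1 probe set, so whether its direction holds over probe sets cannot be told. Among the other cadherins named here only Cdh2 kept its sign over probe sets, with small ratios.

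Catenins join cadherins to actin. Ctnna1, alpha-catenin, was nearly equal in the genotypes, at 13897 and 14130 (0.02) and at 9406 and 9213 (-0.03) by its other passing probe set. Ctnnd1, the catenin that holds cadherins at the membrane, read 3076 and 2682 on MOE430A (-0.20). On MOE430B its brighter probe set read 17688 and 11321 (-0.64) and the other 391.3 and 1385 (1.82), the widest disagreement of any member. The latter probe set passed through the double knockout array alone, which fixed its upward sign. Jup, plakoglobin, which serves both adherens junctions and desmosomes, read 5519 and 4426 (-0.32).

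The desmosome genes were lower or even, apart from Pkp3. Dsp, desmoplakin, which anchors keratin, was lower by all 3 passing probe sets, at 4211 and 3755 (-0.17), 2606 and 1564 (-0.74) and 1289 and 901.8 (-0.51). Its size was thus not settled, and the probe set that reads it here gave the ratio nearest 0. Dsg2, a desmosomal cadherin, had ratios of 0.12, 0.23 and -0.28 over 3 passing probe sets near the filter. Pkp2, a plakophilin of heart and simple epithelia, read 2156 and 2280 (0.08) and 1925 and 1653 (-0.22). Pkp3, a plakophilin of stratified and simple epithelia, read 647.1 and 1154, 1.78-fold higher. Its other probe set did not pass, at 72.9 and 467.6. Ppl and Evpl, plakins of stratified epithelia, had 0.10 (2228 and 2385) and 0.04 (1229 and 1265).

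Epcam, an adhesion protein of epithelial cells, read 3020 and 2901 on MOE430A (-0.06) and 6634 and 12746 on MOE430B (0.94). The latter was 1.92-fold higher, and 7.59% of genes on that design had a ratio at least as high. It came from a probe set of the _x_at kind, as did the reading of Gjc1 on that design, and Affymetrix uses this suffix for probe sets that may also bind other transcripts. On MOE430B 4 members of this class passed, with a median of 0.66 where all genes had -0.04, and each was at least 1.5-fold apart between the arrays, Cdh3, Cdh11 and Epcam upward and Ctnnd1 downward, where 14.3% of all genes were higher and 14% lower by as much. The ratios of Cdh3, Cdh11 and Ctnnd1 are within the SD of 0.71 between probe sets of 1 gene on that design. For Cdh11 and Epcam the direction on MOE430A was opposite.

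Other genes of adherens junctions and desmosomes, from a list of 33 symbols, showed no 1.5-fold difference. On MOE430A 14 passed, 7 higher and 7 lower, with a median of -0.01 and a range from -0.20 to 0.27. At high signal, Perp, a desmosomal membrane protein (0.17), and Cdh5, VE-cadherin (0.09), were the highest, and Ctnnb1, beta-catenin (-0.15), and Pkp4 (-0.12) the lowest. Of 7 on MOE430B, 5 were lower, with a median of -0.10. At high signal there, Nectin1 (0.31) and Ctnnd2 (0.04) were the highest and Afdn, the nectin anchor (-0.30), and Ctnna3, a heart catenin (-0.26), the lowest.

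Gap junction genes were lower where they passed, by their brightest probe sets, although 3 of 8 passing probe sets on MOE430A were higher. Of 6 members, 3 passed on MOE430A, with a median of -0.10, and 1 on MOE430B. Gja1, the connexin of heart, smooth muscle and alveolar epithelium, had 6 passing probe sets. The brightest read 15601 and 12277 (-0.35), and others 7150 and 4841 (-0.56) and 5361 and 4888 (-0.13). The remaining 3 lay between 0.02 and 0.11, and the median over all 6 was -0.06, so its size rests on the probe set chosen. Gja4, a connexin of arterial endothelium, read 2077 and 2004 (-0.05). Gjc1, a connexin of early heart and vascular smooth muscle, was lower on both designs, at 1314 and 1228 (-0.10) and at 3648 and 2473 (-0.56). Of 17 other connexin and pannexin symbols, none passed on MOE430A and 1 on MOE430B, Gja3, named after its values were seen, at 1220 and 487.3.

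**Figure D4:**
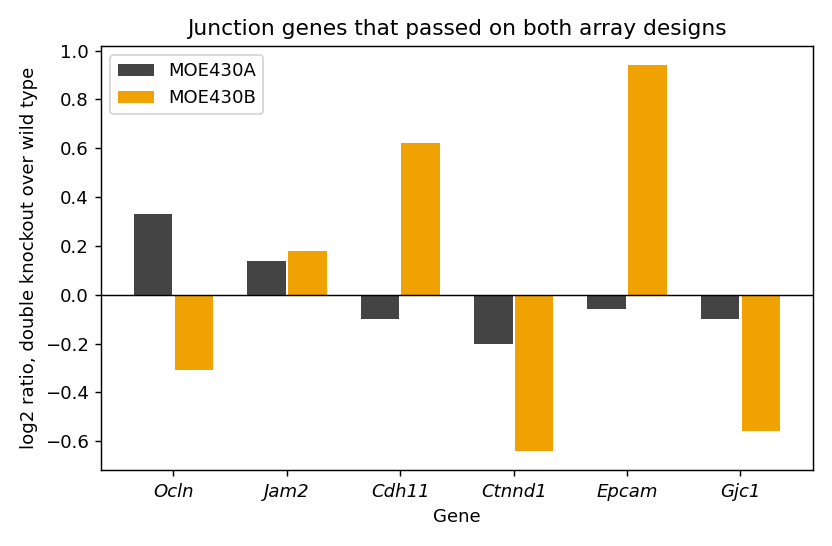
Bars give the log2 ratio of double knockout over wild type for the 6 junction genes that passed on both designs, by the brightest passing probe set on MOE430A (grey) and MOE430B (orange). Jam2, Ctnnd1 and Gjc1 point the same way on both designs, and Ocln, Cdh11 and Epcam point opposite ways.

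The arrays of a genotype carry different probe sets, and 6 members passed on both designs. Of these 3 had opposite directions, Ocln, Cdh11 and Epcam, and the other 3 the same, Jam2, Ctnnd1 and Gjc1. Within a design, 12 readings of a member rested on several passing probe sets, and in 7 of them the probe sets differed in sign. A range over 0.5 was found for 7 of the 12: Cldn3, Jam3, Dsp, Dsg2, Gja1, Cldn12 and Ctnnd1. Cldn18 and Jam2 were those whose passing probe sets lay within 0.1 of each other on the same side of 0. Across the 100 shared probe sets, ratios on MOE430A were a mean 0.22 above those on MOE430B. Over all genes the median ratio was 0.01 on MOE430A and -0.04 on MOE430B, after a rescaling that evens each design. The offset is therefore known for the shared probe sets only.

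Members that passed on neither design numbered 9, with signals from below the floor up to just under the filter. Cldn1, a claudin of skin and airway, had 435.4 and 635.5 by its brightest probe set, and Cldn2, a cation pore former, 660.2 and 738.8. Cldn8 read 324.9 and 177.2, Cldn9 207.3 and 549.7, and Marveld2, tricellulin, 542.0 and 423.2. Dsc2, a desmosomal cadherin, read 464.8 and 211.9. Gjb2, a connexin of airway and inner ear epithelium, read 379.7 and 571.7. Gja5, a connexin of arteries and of the heart's conduction system, and Gjb1, a connexin of liver, had both signals below the floor of 284.5. No direction is read from these, since neither signal reached the filter.

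Several cell types that share these genes differed between the arrays, and their part in the results was not tested. Markers of lung epithelium on MOE430A were higher for 7 of 12 and lower for 5, with a median of 0.10, and their signals summed to 181581 and 229304. Sftpc, of type II cells (0.53), Scgb1a1, of club cells (0.77), and Nkx2-1 (0.73) were higher. Nkx2-1, at 735.0 and 1218, passed through the double knockout array alone, which fixed its direction. Ager and Hopx, of type I cells like Cldn18, had -0.09 and -0.06, and Ager had 0.04 on MOE430B. Krt8, Krt18 and Krt19, keratins of simple epithelium, had -0.03, -0.35 and 0.15, beside -0.35 for Cdh1. Epithelial markers thus went both ways, several by less than the SD of 0.24. How they relate to the higher claudins was not tested.

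Markers of squamous or basal epithelium, where Pkp3, Ppl, Evpl, Cdh3 and Cldn1 are also expressed, had a summed signal of 3148 and 7857 on MOE430A, over 6 genes, none below the floor on both arrays. Of the 4 that passed, 3 did so through the double knockout array alone, which fixed their direction, and without a filter 5 of 6 were higher and 1 was lower. Krt4, a keratin of oesophagus and 1 of those 3, was at least 8.88-fold higher (117.0 and 2525). Krt13 was at least 3.92-fold higher on MOE430A but read 863.7 and 580.3 on MOE430B. Krt4 read 3053 and 8963 on MOE430B, and Krt15 1244 and 2534 on MOE430A, each above the filter on both arrays. Both readings on MOE430B came from probe sets of the _x_at kind. The squamous or basal list summed to 4431 and 10062 on MOE430B over 3 genes. Thymic epithelium, which also expresses Epcam, Cldn3 and Cldn4, had markers that went the other way, at 8822 and 2114 summed over 4 genes. Prss16 read 4466 and 660.7 and Foxn1, the defining factor, 894.3 and 879.3. All 4 passed, 3 of them through the wild type array alone, which fixed the direction of those 3. Without a filter the same 4 were lower and 0 higher. On MOE430B the same list summed to 3763 and 3405 over 3 genes, and Ccl25, a thymic chemokine, was opposite on the designs, at 2443 and 33.5 on MOE430A and at 1276 and 1890 on MOE430B. Thymocyte markers passed for 7 of 8 genes, all 7 through the wild type array alone, which fixed the direction of those that passed. Without a filter 7 of the 8 were lower and 0 higher, with a median of -3.06.

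Cardiac muscle, whose cells are joined by Cdh2, Gja1, Dsp, Pkp2 and Jup, had a summed marker signal of 344132 and 381729 over 11 genes on MOE430A, none below the floor. The median was 0.14, but 0.02 with quantile normalization and 0.00 with loess. Myl2, a ventricular light chain, had 0.47 and Ryr2, the calcium release channel, -0.95. Endothelial markers, beside Gja4 and Jam2, had a median of 0.12 over 9 genes and a summed signal of 34647 and 38726. Mesenchyme markers, beside Cdh11 and Cdh2, had 0.04 over 6, but -0.08 with quantile normalization and -0.11 with loess. Their median was -0.41 without probe sets of the _a_at, _s_at and _x_at kinds and 0.22 without a filter. Their summed signal was 93438 and 98861 over 7. Smooth muscle markers were higher for 5 of 5, with a summed signal of 34994 and 49244, and mesothelial markers summed to 5791 and 5388 over 3.

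**Figure D5:**
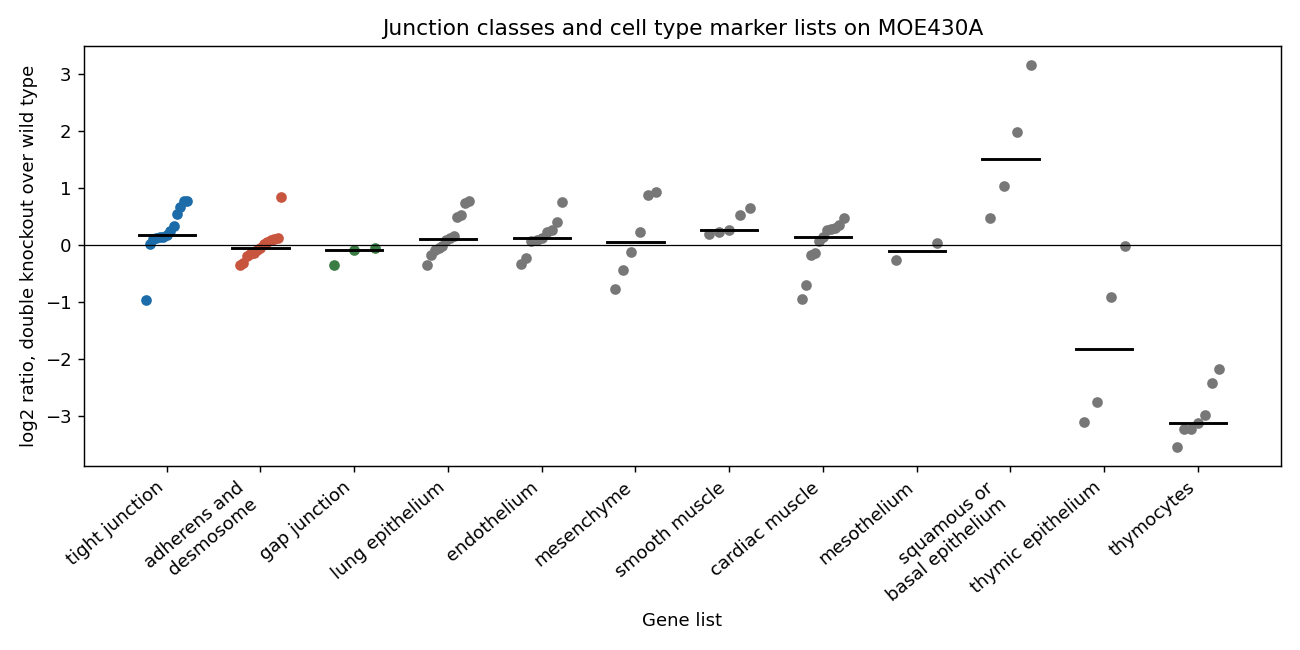
Log2 ratio of double knockout over wild type on MOE430A for each passing gene of the junction classes (coloured) and of the cell type marker lists (grey), with a bar at the median of each list and ratios with 1 signal below the floor drawn at their bound. Junction classes lie close to 0, with medians of 0.17, -0.06 and -0.10, squamous markers lie above and thymic markers below.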

How the data were processed

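RNA of E18.5 lung was measured on 4 Affymetrix arrays, grouped by the sample titles. The deposited values are signal intensities on a linear scale, 1 per probe set, which the authors made with MAS5, per the submitters' processing notes. The MAS5 version is not given in the sources, and no detection call was used. The 2% trimmed mean was 1500 on every array, so each had been scaled on its own and ratios were formed only within a design. Such scaling assumes equal total signal in both genotypes.

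The 64 controls of each design were dropped. The rescaling made the median ratio of passing probe sets 1, and 12181 and 12865 probe sets passed. Names came from GEO's platform annotation, in which 20393 probe sets of MOE430A have 1 gene, 691 several and 1606 none (14674, 245 and 7656 on MOE430B). All 41 symbols match RefSeq. Promoters were read from RefSeq's table as given.

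Members, lists and motifs were chosen with earlier results of these data known. The naming rule gave both signals for members 1.5-fold apart, for the 4 brightest of each class and for members whose probe sets disagree in direction by over 0.5 (signals of most remaining members are printed as well), and, of other lists, the 2 highest and 2 lowest at the 75th percentile of signal with both signals above the floor. The steps were checked on simulated arrays. The 9 alternatives changed scaling (as deposited, quantile, loess), floor, filter, or probe set choice. The work used python 3.11.15, pandas 2.3.3 and statsmodels 0.14.6.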

Additional observations from a re-analysis of the deposited data

How the results depend on the processing

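Of 89 class medians and counts recomputed under the 9 alternatives, 82 stayed within the tolerance, which was the SD of 0.24 for medians and 1.5 times for counts, and 7 did not. The tight junction median on MOE430A was 0.52 instead of 0.17 with the filter at the 75th percentile, where 7 genes in place of 13 were left. The number of members at least 1.5-fold lower on MOE430A, 1 as reported, was 0 at that stricter filter and 2 without any filter. It was also 2 when all probe sets of the _a_at, _s_at and _x_at kinds were dropped. On MOE430B the same number, 1 as reported, was 0 with quantile normalization, with a loess curve removed and with the median over probe sets. The gap junction class could not be computed on MOE430B without the probe sets of those suffixes, which leaves no gene there. Of 320 member ratios under alternatives, 311 stayed within the SD, and 9 moved by more, some with a change of sign. Many of the 311 could not move. No reading of a member had a signal below the floor. A lower floor, no filter or a filter on mean log2 signal therefore left a ratio as it was. A member with 1 passing probe set had no other to be read by. The 311 are thus no measure of stability, and the same holds for part of the 82. Ctnnd1 on MOE430B was at -0.64 as reported and so past 1.5-fold. It had 0.59 by the median over its probe sets and 1.82 with the kinds of those suffixes dropped. Both values draw on its probe set that passed through the double knockout array alone. Sign also changed, by more than the SD, for ratios that were under 1.5-fold as reported: Cldn12 on MOE430B from 0.09 to -0.29 and -0.68 under the same alternatives, Jam3 from 0.10 to -0.47 by the median, and Pkp2 from 0.08 to -0.22 with those kinds dropped. The causes of these changes were not tested. Signal over background limits the 9 members that did not pass.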
